A study of Drosophila melanogaster with 5 samples.

Results

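The mitochondrial ribosomal protein genes of Drosophila melanogaster were followed in larval hemocytes, the circulating blood cells, on 5 expression arrays. The rule for membership reads the annotation and no measured value. Every probe set that the platform annotation maps to 1 gene with a symbol beginning mRpL or mRpS was taken, and a gene with several probe sets took their mean. This gave 69 genes (71 probe sets) of 11982 named genes, 44 of the large subunit (mRpL) and 25 of the small subunit (mRpS), by symbol. Structures of the mammalian ribosome place the counterparts of mRpS30 and mRpS18A in the large subunit, but both are counted here by symbol. mRpS10 and mRpL53 were left out because their probe sets are also annotated to a neighbouring gene (CG34316 and CG33155), and mRpL34 and mRpL37 were not analysed here.

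Mitochondria carry their own ribosome, which translates the few proteins encoded by mitochondrial DNA, all of them subunits of the respiratory chain and the ATP synthase. The ribosomal RNAs come from mitochondrial DNA, whereas every protein of this ribosome is encoded in the nucleus, made in the cytosol and imported. Some of these proteins have counterparts in the bacterial ribosome, and others are found only in mitochondrial ribosomes.

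Hemocytes came from larvae of the third instar, the last stage before pupation, and each array held RNA pooled from 200 to 300 larvae. The 4 mutant stocks were a spen loss-of-function line, spen(GE10359), with a P-element in the UTR of the gene, the loss-of-function stocks E(spl)rvl and Su(H)l(417) (stock 417), and an EGFR gain-of-function stock (stock 1564) for which the labels name no allele. The control strain was W1118. spen encodes an RNA-binding nuclear protein, E(spl) and Su(H) belong to the Notch pathway, and EGFR is the epidermal growth factor receptor. The labels do not say whether the mutant larvae were homozygous. With 1 array per group there was no replicate check and no test, so higher and lower describe these arrays, and no p-value is given.

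Levels are log2 values, so a difference of 1 is 2-fold and a difference of 0.5 is 1.41-fold. Array medians lay between 4.46 and 4.54, and background probe sets for Bacillus genes peaked at 4.78 (spen), 4.33 (E(spl)), 4.28 (Su(H)), 4.404 (EGFR) and 4.33 (control). The excess of 3' over middle probe sets, averaged over actin, eIF-4a and GAPDH, was 1.74 on spen, 2.14 on E(spl), 2.59 on Su(H), 1.90 on EGFR and 1.57 on the control array. The highest spen probe set stood at 4.90 on the spen array, against 9.79 on the control array. All 9 plasmatocyte markers, among them Hml, were above the median of all levels on every array, with list medians of 12.73 (spen), 13.29 (E(spl)), 13.43 (Su(H)), 13.53 (EGFR) and 13.11 (control). Markers of other tissues were present too, though not all of them on every array. The testis list had a median of 5.51 on spen, 5.92 on E(spl), 6.11 on Su(H) and 7.26 on EGFR, against 8.84 on the control array. The salivary gland median was 11.47 on spen, 5.14 on E(spl), 5.49 on Su(H) and 5.998 on EGFR, against 6.55 on the control. Muscle genes had medians of 6.11, 9.12, 9.22 and 7.66 in the same order of stocks, against 6.60 on the control, and fat body genes 11.10, 10.91, 11.41 and 9.47, against 12.13. Gut genes had medians of 4.71, 5.57, 6.81 and 4.96, against 6.12, with the protease gene Jon99Fi at 11.11 on Su(H) against 4.66 on the control. The gut median on spen lay below the highest Bacillus probe set of that array (4.78). On EGFR 4 of the 7 gut genes stood above the median of all levels. Other blood cell types differed as well. The 4 crystal cell markers had medians of 9.64 (spen), 11.57 (E(spl)), 11.53 (Su(H)) and 11.49 (EGFR), against 10.40 (control), with PPO1 and PPO2 bright on every array. The 5 lamellocyte markers had medians of 8.48, 9.24, 10.34 and 8.58, against 7.69. What these cell types and other tissues contribute to the differences given below was not tested. In pooled tissue, fewer cells of a type and less RNA per cell cannot be told apart.

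All 69 genes were expressed above the median of all levels (4.50) and above the highest Bacillus probe set on each of the 5 arrays, so none dropped out of any comparison. Of all named genes, 56.6% stood above that median on every array. The members' median level was 8.38 on spen, 8.39 on E(spl), 8.36 on Su(H), 8.45 on EGFR and 8.21 on the control array. That is close to the middle of the expressed genes, since 53.8% (spen), 53.1% (E(spl)), 54.4% (Su(H)), 55.9% (EGFR) and 52.8% (control) of the genes above 4.50 on that array stood below it. The highest by mean level were mRpL4, mRpS31, mRpL45, mRpL28, mRpS30 and mRpS9, and the lowest were mRpS33, mRpS6, mRpL23, mRpL42, mRpL52 and mRpL48. mRpL4 stood at 10.59 on spen, 11.05 on E(spl), 10.60 on Su(H) and 10.55 on EGFR, against 10.58 on the control. mRpS33 stood at 5.09, 5.26, 5.48 and 5.30 in the same order, against 5.30 on the control. Probes of different genes differ in brightness, so this order of levels does not rank the transcripts.

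**Figure D1:**
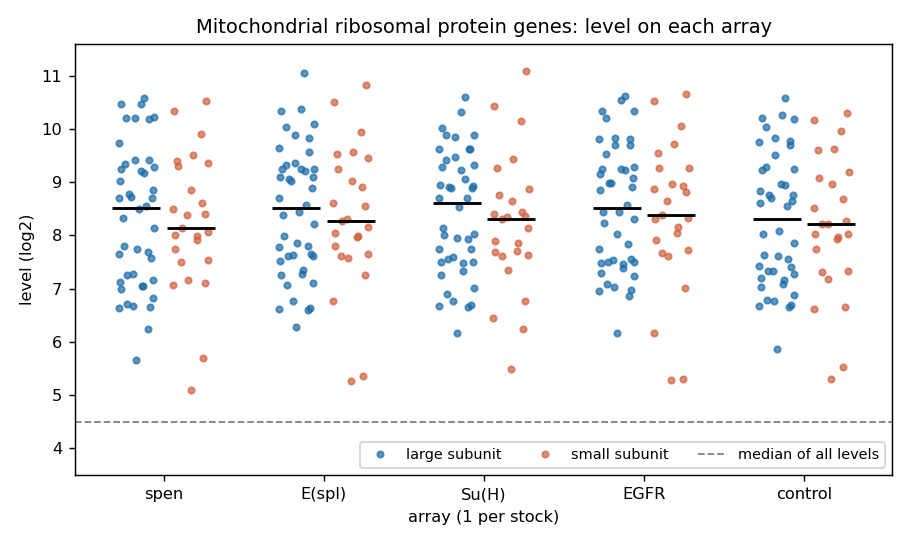
Log2 level (y axis) of each of the 69 genes on each array (x axis), large subunit in blue and small subunit in orange, with black bars at the group medians. Every point lies above the dashed line, the median of all levels at 4.50, and the 5 arrays cover similar ranges.

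No member differed by 2-fold between any mutant and the control. Among all named genes that reached 4.50 on 1 of both arrays, 17.3% differed by at least 2-fold in either direction on the spen array (of 8079 genes), 21.9% on E(spl) (of 8076), 21.9% on Su(H) (of 8139) and 14.9% on EGFR (of 8017). Among genes at a level of at least 8 on 1 of both arrays, the shares were 10.7%, 16%, 17% and 12.6%, still with none among the members of that level. Those members numbered 43 (spen), 41 (E(spl)), 43 (Su(H)) and 45 (EGFR). This filter has no upper limit, so it does not match the genes to the members' brightness. The standard deviation across members of the difference from control was 0.33 (spen), 0.30 (E(spl)), 0.36 (Su(H)) and 0.35 (EGFR), beside 0.90, 1.01, 0.97 and 0.77 across all genes. Of the members, 6 (8.70%) spanned at least 1 log2 unit over the 5 arrays, whereas 41% of 8419 genes did. At a mean level of at least 8 it was 2 of 40 members and 30.4% of genes. The count of 0 held in spen, E(spl) and Su(H) under each other setting tried, and in EGFR under all but renewed quantile scaling, where 3 members (mRpL50, mRpS24 and mRpL27) passed 2-fold.

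The median difference of the 69 genes was 0.05 (spen), 0.13 (E(spl)), 0.09 (Su(H)) and 0.28 (EGFR), beside 0.04, 0.01, −0.03 and −0.01 for all genes. These 4 comparisons share the control array. In spen, 40 members stood above the control (58.0%), as did 53.7% of all genes. The count was 45 for E(spl) (65.2%, all genes 50.4%) and 42 for Su(H) (60.9%, all genes 47.4%). At a threshold of 0.5, between 6 and 15 members were higher in a stock and between 1 and 5 lower. Differences of 0.5 are no larger than the disagreement between probe sets of 1 gene, whose pooled SD was 0.51 (spen), 0.58 (E(spl)), 0.62 (Su(H)) and 0.58 (EGFR) over 344 to 358 genes. Since 67 of the 69 members have a single probe set, their own differences have no such check.

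**Figure D2:**
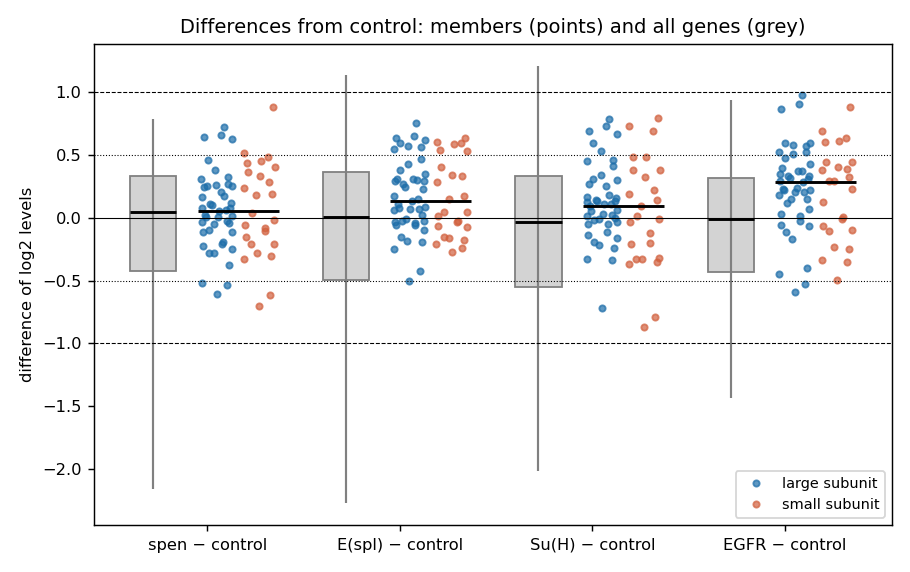
Difference of log2 levels (y axis) of each member from the control array in the 4 stocks (x axis), large subunit in blue and small subunit in orange, with a black bar at the members' median. The grey box and line give the quartiles and the 5th to 95th percentiles of all genes above the level filter. Members stay within 1 log2 unit of 0, and their median stands highest in EGFR, at 0.28.

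In the EGFR stock, 51 of the 69 genes (73.9%) stood above the control, as did 48.9% of all genes, while 52 stayed within 0.5 of it. The background shares at 0.5 were 14.9% higher and 22.7% lower, so the 15 higher members (21.7%) were above the background share and the 2 lower ones (2.90%) below it. Restricted to levels of at least 8, 13 of 45 members were higher by 0.5, against 17% of all genes, and the members' median was 0.33 against 0.02. The EGFR array also held the highest of the 5 levels for 25 members (36.2%), which it did for 16.9% of all genes. On the same array the crystal cell list had a median difference of 1.09 (lz 3.54, peb 1.84, PPO2 0.35, PPO1 0.31). That median falls between peb and PPO2. lz stood at 7.43 on EGFR but at 3.89 on the control, below the highest Bacillus probe set of that array (4.33), so its difference starts from background. The lamellocyte list had one of 0.87 (Drip 2.33, atilla 2.32, ItgaPS4 0.87, PPO3 0.77, mys 0.18). In E(spl) and Su(H) the crystal cell medians, for which lz was counted too, were 1.19 and 1.08, and the lamellocyte medians 1.66 and 2.84. The part of these cell types in the members' values was not tested. Measured from the other 3 stocks' mean instead, the members' median in EGFR was 0.11 and 6 members were higher by 0.5. No median or share of all genes is given for that reference, so these values are not read against a background.

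mRpL50, a large subunit protein specific to mitochondria, showed the largest difference of any member from the control, 1.97-fold higher in EGFR. It stood at 7.58 on spen, 7.64 on E(spl), 7.50 on Su(H) and 8.31 on EGFR, against 7.34 on the control, so the EGFR array stood alone. mRpL32, counterpart of a small zinc-binding protein of the bacterial large subunit, was 1.87-fold higher in EGFR. Its levels were 8.32, 8.39, 8.53 and 8.98 in the order spen, E(spl), Su(H) and EGFR, against 8.08 on the control. mRpS24 differed by 0.88 and mRpL27 by 0.86. The next were mRpS30 (0.69), mRpS22 (0.63), mRpS35 (0.61) and mRpS29 (0.60). mRpS29 is the fly counterpart of the mammalian DAP3, a GTP-binding protein of the small subunit that has been linked to cell death in mammals, and mRpS30 corresponds to mammalian PDCD9. mRpL33, another small bacterial-type protein, was lowest in EGFR at −0.59, with 8.24 on EGFR against 8.83 on the control. mRpL24 was at −0.52, mRpS16 at −0.495 and mRpL15 at −0.45, followed by mRpL3 (−0.40), mRpS5 (−0.35), mRpS7 (−0.34) and mRpS18B (−0.25).

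In E(spl), 14 members were higher and 1 lower by 0.5, with background shares of 17.8% and 24.8%. The share of higher members (20.3%) was near the background, and the share of lower ones (1.45%) was below it. The members' median of 0.13 stood beside 0.01 for all genes. It was 0.08 against 0.04 at levels of at least 8. It was 0.01 when the other 3 stocks' mean replaced the control, with no median of all genes given for that reference. mRpL41, specific to mitochondria, led at 0.75. Its levels were 7.13 on spen, 7.63 on E(spl), 7.60 on Su(H) and 7.40 on EGFR, against 6.88 on the control. mRpL13 (0.65), mRpL27 (0.64), mRpS24 (0.63), mRpL44 (0.62), mRpS29 (0.60), mRpS16 (0.60) and mRpL49 (0.59) followed. The lower member was mRpL22, counterpart of a bacterial protein that lines the peptide exit tunnel, at −0.50. It stood at 10.22 on spen and 9.26 on E(spl), the extremes of the 5 arrays, and at 9.76 on the control. The next lowest were mRpL24 (−0.42), mRpS18B (−0.27), mRpL10 (−0.25), mRpS17 (−0.24), mRpS9 (−0.21), mRpL52 (−0.19) and mRpL16 (−0.18).

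In Su(H), the members moved both ways, with 9 higher and 3 lower by 0.5. The background shares were 17.7% higher and 26.6% lower, so both member shares (13.0% and 4.35%) lay below them. mRpS31, a mitochondria-specific small subunit protein and among the brightest members, was highest at 0.79. It reached 10.33 on spen, 10.82 on E(spl), 11.08 on Su(H) and 10.53 on EGFR, against 10.30 on the control. mRpL27 (0.79), mRpL41 (0.73), mRpS6 (0.73), mRpS24 (0.69), mRpL54 (0.69), mRpL35 (0.66) and mRpL1 (0.60) came next. mRpS6 is a dim member, with 6.25 on Su(H) against 5.52 on the control. At the low end were mRpS5 and mRpS18B. mRpS5, whose bacterial counterpart lies where mRNA enters the small subunit, was 1.82-fold lower in Su(H), at 8.76 against 9.63 on the control, while spen (9.52), E(spl) (9.45) and EGFR (9.27) stood between. mRpS18B was at −0.79 and mRpL24 at −0.72. The other low members were mRpS17 (−0.37), mRpS7 (−0.35), mRpL3 (−0.33), mRpL19 (−0.33) and mRpS21 (−0.33). The 3' excess was greatest on Su(H), and its part in these differences was not tested.

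In spen, 6 members were higher and 5 lower by 0.5, beside background shares of 14.1% and 23.3%. Renewed quantile scaling gave 12 higher and 3 lower members, and changed the background shares to 20.8% and 20.4%. Shifting the arrays to 1 median gave 10 and 3, and changed the background shares to 18.3% and 21.5%. mRpS2, counterpart of a protein that joins the bacterial small subunit late in assembly, was 1.84-fold higher in spen. It stood at 8.61 on spen, 7.58 on E(spl), 7.62 on Su(H) and 7.72 on EGFR, against 7.74 on the control, so that spen stood apart from 4 arrays within 0.2 of each other. mRpL10, which anchors the stalk that recruits translation factors in bacteria, was similar in pattern at 0.72, with 9.41 on spen, 8.45 on E(spl), 8.70 on Su(H) and 8.58 on EGFR, against 8.70 on the control. mRpL51 (0.66), mRpL27 (0.64), mRpL38 (0.63), mRpS16 (0.51), mRpS14 (0.48) and mRpL22 (0.46) were the next highest. Lowest in spen was mRpS25 at −0.70, with 7.98 on spen, 9.02 on E(spl), 8.65 on Su(H) and 8.81 on EGFR, against 8.68 on the control. mRpS17 and mRpL55 followed at −0.61 each, and mRpL52 at −0.54, which renewed quantile scaling changed to −0.09. mRpL55, a gene that larvae need for their development, stood at 6.82 on spen and 7.99 on E(spl), the widest range of any member (1.17), with 7.43 on the control. The remaining low members were mRpL24 (−0.52), mRpL20 (−0.38), mRpS18B (−0.32) and mRpS7 (−0.31).

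**Figure D3:**
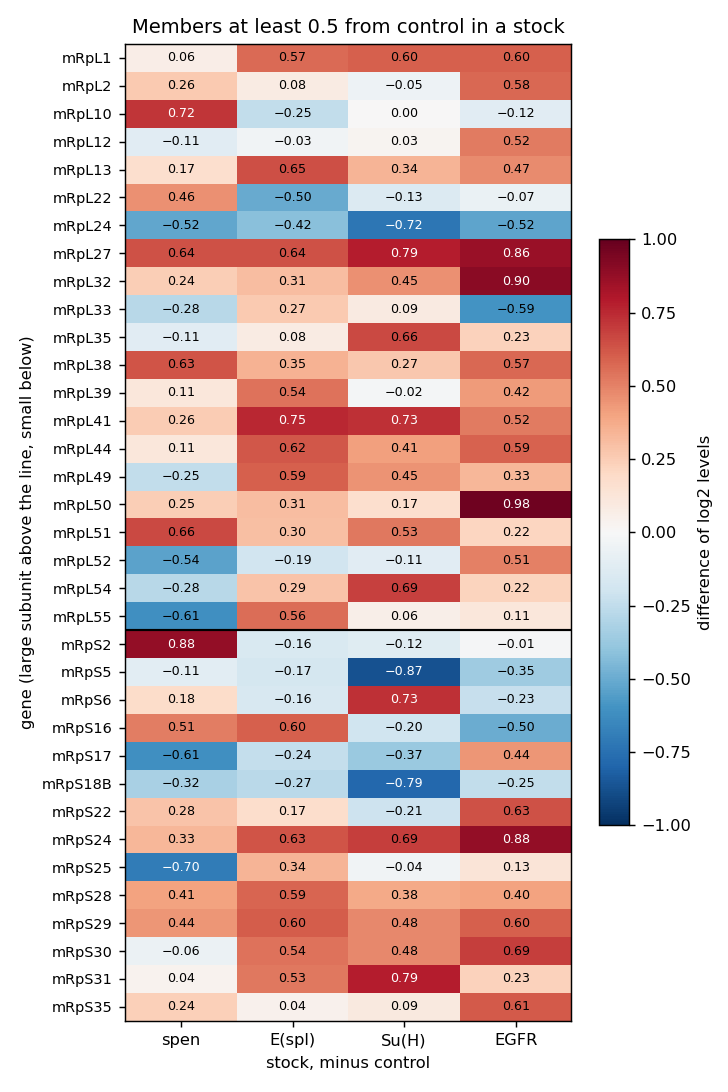
Difference of log2 levels from the control array (colour and printed value) for the 35 members (rows) at least 0.5 from it in a stock (columns). The large subunit is above the line and the small subunit below it. mRpL27 is at or above 0.64 in each stock, mRpS2 and mRpL10 stand out in spen alone, and no value passes 1.

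The 35 members shown by the heat map are 50.7% of the 69, and 67.3% of 8419 genes met the same rule of a 0.5 difference in some stock. The other 34 stayed within 0.5 of the control in each stock, as did 32.7% of those genes. Over the 5 arrays, the level was highest on spen for 12 members (17.4%, all genes 28.2%), on E(spl) for 17 (24.6%, all genes 18.5%), on Su(H) for 8 (11.59%, all genes 15%) and on the control for 7 (10.1%, all genes 21.4%). The level was lowest on spen for 19 members (27.5%, all genes 23.3%), on E(spl) for 6 (8.70%, all genes 19.8%), on Su(H) for 14 (20.3%, all genes 18.9%), on EGFR for 7 (10.1%, all genes 16.8%) and on the control for 23 (33.3%, all genes 21.2%). The control and spen arrays thus held the lowest level most often, and EGFR the highest. The narrowest ranges over the 5 arrays belonged to mRpL11 (0.16), mRpL21 (0.21), mRpL42 (0.23), mRpL17 (0.24) and mRpL28 (0.27). mRpL11, whose bacterial counterpart sits at the base of the factor-recruiting stalk, stood at 7.65 on spen, 7.52 on E(spl), 7.496 on Su(H) and 7.49 on EGFR, against 7.55 on the control. The widest ranges were those of mRpL55 (1.17), mRpS16 (1.09), mRpS17 (1.06), mRpL52 (1.05) and mRpS25 (1.04). The spen array was the lowest of the 5 for each of these 5 except mRpS16, which was lowest on EGFR.

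By ribosome region, most values that follow lie within 0.5 of the control and are given as levels only. In the factor stalk, mRpL10 was high in spen, mRpL11 was nearly level, and mRpL12 was highest in EGFR. mRpL12 binds mRpL10 and recruits translation factors, and in Drosophila it is needed for growth driven by Cyclin D and Cdk4. It stood at 9.17 on spen, 9.25 on E(spl), 9.32 on Su(H) and 9.81 on EGFR, against 9.29 on the control, a difference of 0.52 in EGFR and of at most 0.11 in size elsewhere. mRpL1, counterpart of the bacterial stalk that releases spent tRNA, was higher by 0.57 (E(spl)), 0.60 (Su(H)) and 0.60 (EGFR) and differed by 0.06 in spen.

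At the peptidyl transferase centre, where peptide bonds form, mRpL27 was higher than the control in every stock. It stood at 7.81 on spen, 7.80 on E(spl), 7.95 on Su(H) and 8.03 on EGFR, against 7.17 on the control, which was thus the lowest array. mRpL2, also of this centre, differed by 0.58 in EGFR and by 0.26, 0.08 and −0.05 in spen, E(spl) and Su(H). mRpL3, a further member of the centre, did not pass 0.5 in any stock, at 9.02, 9.09, 8.91 and 8.85 in spen, E(spl), Su(H) and EGFR, against 9.25 on the control. Because every such difference subtracts the same control array, the 4 values of a gene are not independent.

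Along the peptide exit tunnel, mRpL24 was lower by 0.5 in spen, Su(H) and EGFR and stood at −0.42 from the control in E(spl). Its levels were 9.26 on spen, 9.35 on E(spl), 9.06 on Su(H) and 9.25 on EGFR, against 9.78 on the control. mRpL22 ran high in spen and low in E(spl), as given above. mRpL23, which in bacteria forms the docking site at the tunnel exit, was dim and differed by −0.19, 0.43, 0.31 and 0.31 in spen, E(spl), Su(H) and EGFR. mRpL47 and mRpL45, which lie near this exit in mammals, stayed within 0.35 of the control in each stock. mRpL4, whose bacterial counterpart reaches into the tunnel, differed by 0.47 in E(spl) and by no more than 0.03 in size in the other stocks.

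On the small subunit, mRpS24 was higher by 0.5 in E(spl), Su(H) and EGFR and differed by 0.33 in spen, with 7.51 on spen, 7.81 on E(spl), 7.87 on Su(H) and 8.05 on EGFR, against 7.17 on the control. mRpS24 corresponds to the protein S3 of bacteria, which lies beside mRpS5 at the mRNA entry. mRpS5 passed 0.5 in Su(H) alone. mRpS7, in bacteria a protein of the subunit's head, was at −0.31, −0.07, −0.35 and −0.34 in spen, E(spl), Su(H) and EGFR. The fly has 3 genes related to bacterial S18. mRpS18A differed by −0.28, 0.02, −0.32 and 0.29, mRpS18B by −0.32, −0.27, −0.79 and −0.25, and mRpS18C by 0.45, 0.15, 0.14 and 0.39, in that order of stocks. Of these genes, mRpS18B alone passed 0.5, in Su(H). mRpS18B is read by a probe set with the suffix _s_at, which can match more than 1 transcript.

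**Figure D4:**
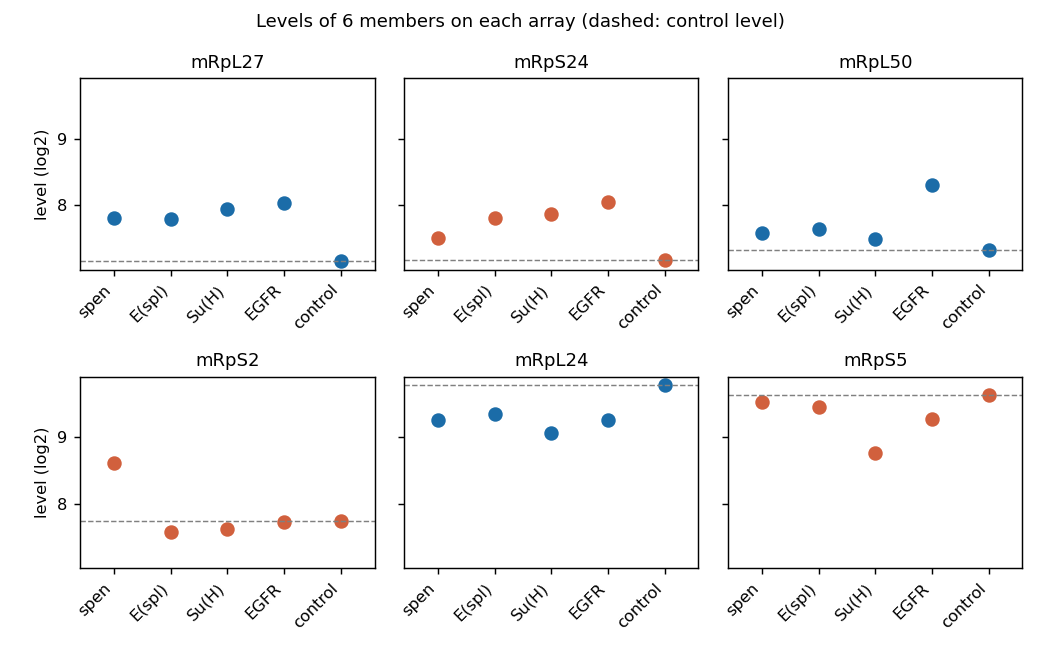
Log2 level (y axis) on each array (x axis) of 6 genes, large subunit in blue and small subunit in orange, with a dashed line at the control level. mRpL27 and mRpS24 lie above the control line and mRpL24 below it, mRpS5 is lowest on Su(H), mRpL50 stands out on EGFR and mRpS2 on spen.

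The median difference of the large subunit was 0.06 (spen), 0.14 (E(spl)), 0.11 (Su(H)) and 0.26 (EGFR), and that of the small subunit was 0.04, 0.05, 0.02 and 0.29. Split by ancestry, 42 members have bacterial counterparts, 25 are specific to mitochondrial ribosomes and 2 (mRpS28 and mRpL55) were put in neither class. The mitochondria-specific genes had medians of 0.04 (spen), 0.30 (E(spl)), 0.17 (Su(H)) and 0.35 (EGFR). The genes with bacterial counterparts had medians of 0.06, 0.03, 0.04 and 0.15 in the same order. Whether the classes differ was not tested. Only mRpL47 and mRpS11 had a pair of probe sets. For mRpL47 they differed from the control by 0.24 and 0.37 in EGFR, and by −0.33 and 0.01 in Su(H). For mRpS11 they differed by −0.04 and 0.68 in EGFR and by −0.29 and 0.32 in Su(H), so opposite signs occurred within 1 gene.

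Comparisons among the mutants left the control array out. The members' median difference was 0.19 for EGFR against spen, 0.08 for E(spl) against spen and −0.03 for Su(H) against spen. It was 0.03 for EGFR against E(spl), 0.12 for EGFR against Su(H) and −0.08 for Su(H) against E(spl). All genes had medians of 0.02, −0.03, −0.02, 0.02, 0.07 and −0.01 in these 6 comparisons. At 2-fold, 3 members differed in E(spl) against spen, 3 in EGFR against spen, 1 in EGFR against E(spl) with background shares of 17.4%, 19.5% and 12.9%. None did in Su(H) against spen, Su(H) against E(spl) and EGFR against Su(H), beside 17.1%, 6.51% and 11.1% of all genes. mRpL55 and mRpS25 were higher and mRpS2 lower in E(spl) than in spen. mRpS17 and mRpL52 were higher in EGFR than in spen, with 8.96 and 7.29 on EGFR against 7.91 and 6.25 on spen. mRpS16, at 6.16 in the EGFR stock, stood below its E(spl) level of 7.25 and its spen level of 7.17 by 2-fold.

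The rest of the mitochondrial translation machinery was read from fixed lists. tko and bonsai encode the small subunit proteins S12 and S15 under other symbols and are no members. tko, known for the bang-sensitive seizures of its mutant, stood at 7.24 on spen, 7.24 on E(spl), 7.57 on Su(H) and 7.38 on EGFR, against 7.10 on the control. bonsai stood at 9.28, 9.51, 9.04 and 8.89, against 9.25. Both stayed within 0.5 of the control in each stock.

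Mitochondrial aminoacyl-tRNA synthetase genes, 16 on the array, charge the tRNAs that this ribosome uses. HisRS and ThrRS are among the 16 but lack the suffix -m that marks the others as mitochondrial, so their values need not concern mitochondria alone. The numbers higher and lower by 0.5 were 6 and 1 for spen, 3 and 3 for E(spl), 5 and 2 for Su(H), and 2 and 1 for EGFR. As shares of the 16 these were 37.5% and 6.25% for spen, 18.8% and 18.8% for E(spl), 31.2% and 12.5% for Su(H), and 12.5% and 6.25% for EGFR, beside 14.1% and 23.3%, 17.8% and 24.8%, 17.7% and 26.6%, and 14.9% and 22.7% of all genes. CysRS-m was lower, at −0.80 (E(spl)), −0.94 (Su(H)) and −1.15 (EGFR), and stood within 0.01 of the control in spen. HisRS was higher by 0.52, 0.81, 1.02 and 0.90 in spen, E(spl), Su(H) and EGFR. GluRS-m differed by 0.91 in Su(H) and MetRS-m by 0.87 in EGFR. Of the 9 translation factors on the array, mRRF1 was higher in spen and lower in Su(H), mEFTu1 was lower in E(spl), and 0 passed 0.5 in EGFR. mRRF1, the ribosome recycling factor, differed by 0.53 in spen and −0.74 in Su(H). mEFTu1, an elongation factor, differed by −0.56 in E(spl) and 0.25 in EGFR. mRF1, a release factor, differed by 0.49 in E(spl) and mIF2, an initiation factor, by 0.45 in spen.

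Genes that copy, transcribe and process mitochondrial DNA were among the groups with a positive median in EGFR, at 0.40 over 12 genes, of which 6 (50%) were higher and 1 (8.33%) lower by 0.5, beside 14.9% and 22.7% of all genes. In E(spl) 1 (8.33%) and in Su(H) 2 (16.7%) were higher, beside 17.8% and 17.7% of all genes. None was lower in these stocks, beside 24.8% and 26.6%. In spen all 12 stayed within 0.5, where 14.1% of all genes were higher and 23.3% lower. PolrMT, the mitochondrial RNA polymerase, was higher by 1.18 in EGFR, at 7.26 on EGFR against 6.08 on the control, while spen stood at 5.99, E(spl) at 6.33 and Su(H) at 6.58. mtTFB2, its initiation factor, was higher by 0.70 in EGFR, and mtDNA-helicase by 0.60 in E(spl) and 0.58 in EGFR. mTTF, a transcription termination factor, was lower in EGFR, at −0.65. In the assembly and membrane insertion list, 7 genes on the array, Lon, a mitochondrial protease, was higher by 0.66, 0.73, 0.75 and 0.59 in spen, E(spl), Su(H) and EGFR. mTerf3, which promotes assembly of this ribosome, differed by 0.68 in E(spl), PNPase, an RNA-degrading enzyme, by 0.64 in EGFR, and OXA1L, which inserts new proteins into the inner membrane, by −0.58 in spen.

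Of the 15 import and chaperone genes, 4 were higher and 2 lower by 0.5 in EGFR, 0 and 4 for spen, 1 and 2 for E(spl), and 0 and 5 for Su(H). The 4 lower genes in spen were 26.7% of the list, near the 23.3% of all genes. The 4 higher and 2 lower in EGFR were 26.7% and 13.3%, beside 14.9% and 22.7%, and the 5 in Su(H) were 33.3%, beside 26.6%. Hsp60A, the mitochondrial chaperonin, stood at 12.01 on spen, 12.15 on E(spl), 12.15 on Su(H) and 13.02 on EGFR, against 11.86 on the control. Tim8 was higher by 0.67 in EGFR. Tim17b1 differed by −3.05, −3.48, −3.15 and −2.20 in the order spen, E(spl), Su(H), EGFR. It stood at 6.14, 5.72, 6.05 and 6.99 in that order, against 9.20 on the control. Tim17b, of the same list, differed by −0.31, −0.43, −0.63 and −0.24. The testis marker Mst84Db stood at 6.57, 6.53, 6.90 and 7.67, against 9.73. The part of testis tissue in the Tim17b1 values was not tested. Tim13 lay below the highest Bacillus probe set on the spen, E(spl) and Su(H) arrays, against 5.35 on the control, so no difference is given for it. It is still 1 of the lower genes counted above in each stock, so those counts and shares rest in part on a gene near background.

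The respiratory chain and ATP synthase, which incorporate the products of this ribosome, had 71 genes on the array, 66 of them above the level filter. Their medians were 0.03 (spen), −0.07 (E(spl)), −0.05 (Su(H)) and 0.18 (EGFR). At 2-fold, 12 were lower for spen, 11 for E(spl), 11 for Su(H) and 6 for EGFR. These were 18.2%, 16.7%, 16.7% and 9.09% of the 66, near the 14.6%, 15.4%, 14.9% and 10.5% of all genes. Every one of these lower genes carries a symbol with an added L, which marks it as a relative of a standard subunit gene. No standard subunit gene of the list was lower by 2-fold in any stock. The medians above include these relatives. By their most extreme stock, the 4 genes farthest from the control were COX7AL, COX4L (−2.70 in E(spl)), Cyt-c1L (−2.50 in spen) and ATPsynGL (−2.40 in Su(H)), whose symbols mark them as relatives of the standard subunit genes. COX7AL lay below 4.50 on every mutant array and at 6.49 on the control. COX4L, for example, stood at 5.66 on spen, 5.25 on E(spl), 5.45 on Su(H) and 6.06 on EGFR, against 7.95 on the control. The testis markers Mst84Da (4.95, 5.81, 6.005 and 7.26 in the same order, against 9.02) and betaTub85D (8.57, 8.03, 9.20 and 10.25, against 11.48) stood beside these, and their part was not tested. Among the 34 cytosolic ribosomal protein genes on the array, medians were 0.03, −0.08, −0.16 and −0.01. RpL10Aa was lower by 2-fold in each stock, RpS19b in spen, E(spl) and Su(H), and RpS5b in spen and E(spl). No other gene of this list was lower by 2-fold. The shares of the 34 were 8.82% (spen), 8.82% (E(spl)), 5.88% (Su(H)) and 2.94% (EGFR), below the 14.6%, 15.4%, 14.9% and 10.5% of all genes. On the control array RpL10Aa (8.15), RpS19b (7.96) and RpS5b (8.68) stood far below the list median of 12.71. 

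**Figure D5:**
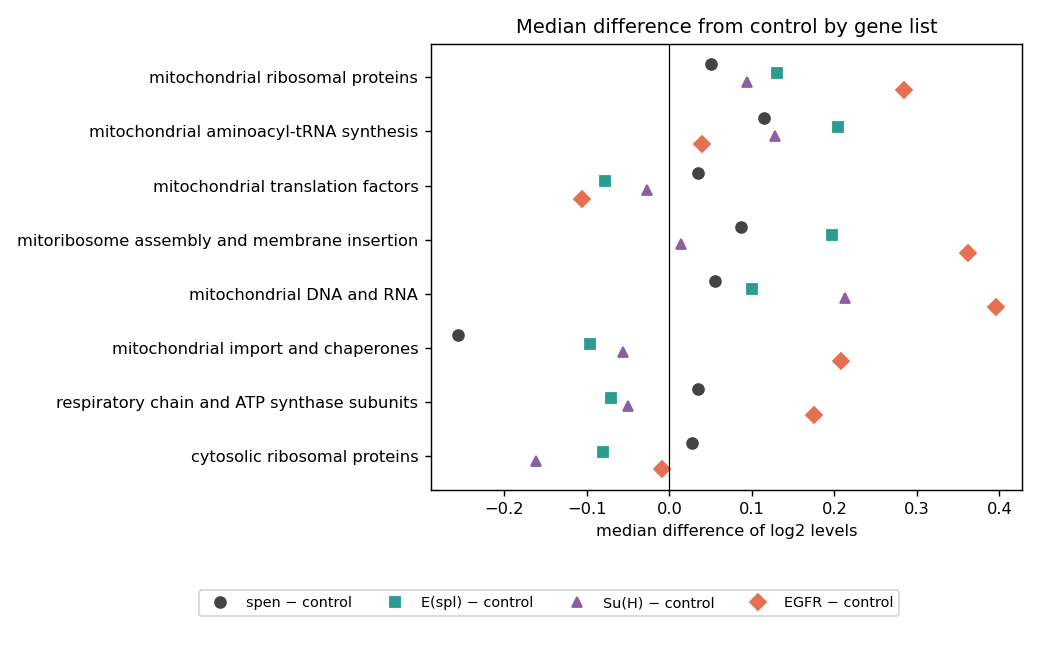
Median difference of log2 levels from the control (x axis) for 8 gene groups (rows), with 1 symbol per stock. In EGFR the mitochondrial ribosomal proteins stand at 0.28 and the mitochondrial DNA and RNA genes at 0.40, while the translation factors stand at −0.11 and the cytosolic ribosomal proteins at −0.01.

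Replication and mitosis genes, read because dividing cells make new mitochondria, had medians of −0.55 (spen), 1.15 (E(spl)), 0.96 (Su(H)) and 1.01 (EGFR) over 15 genes. CycB, a mitotic cyclin, was lower in spen, at −1.61, and higher by 1.86, 1.77 and 1.57 on E(spl), Su(H) and EGFR arrays. Orc1, of the origin recognition complex, was higher by 2.32 in EGFR and differed by 0.07 in spen. The members' medians beside these were 0.05, 0.13, 0.09 and 0.28. Of the 4 growth regulators on the array, Dref, a factor that binds promoters of growth genes, was higher by 1.08 in Su(H) and 0.65 in E(spl), S6k, a growth kinase, by 0.69 in Su(H), and ewg differed by 0.44 in E(spl). foxo, a factor active when insulin signalling is low, was higher by 1.24 in spen and lower elsewhere, at −0.62 (E(spl)), −1.004 (Su(H)) and −1.07 (EGFR).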

How the data were processed

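RNA (1.0 to 1.3 µg) was amplified with the RiboAmp kit and biotin-labelled, per the labels' protocols. The authors deposited 1 table of log2 levels for 18952 probe sets on 5 arrays, with values between 2.54 and 14.74. RMA and GCOS are named in the submitters' processing notes, and their role, version and settings are not given in the sources used here. Array medians differ (4.46 to 4.54), so the deposited arrays do not share 1 distribution.

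From these values, 183 control probe sets were set aside, genes were named from the platform annotation (13647 probe sets with 1 gene, 402 with several, 4720 with none; no symbol needed an update from the Release 6 gene table), and gene means and differences of log2 levels were computed with pandas 2.3.3. A gene entered a comparison if it reached 4.50, the median of all levels, on 1 of both arrays. The number of arrays, 1 per group, limits the precision. The membership rule uses annotation only, but this gene group, the lists and the thresholds were picked with earlier results of these data known. The text names the 8 highest and 8 lowest members per stock, those with the highest and lowest levels and widest and narrowest ranges, members with a known role, tko, bonsai, and up to 4 genes per list, leaving out some marker genes. mRpS18A and mRpS18C were named beside mRpS18B, mys beside the other lamellocyte markers, and Tim17b beside Tim17b1, after their values were seen. Scaling, probe set choice, level filter, reference array and centring were varied. The counting script was tested on simulated data.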

Additional observations from a re-analysis of the deposited data

How the results depend on the processing

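Each median, count and subunit gap against the control was recomputed under 10 other settings (11 for the counts at 0.5) and each median between mutants under 3. Of these 226 values, 191 stayed within 0.1 log2 units of the reported median or within 1.5 times the reported count. Some of the values could not move. All 69 members passed the level filter and the Bacillus limit on every array, so the settings without that filter or with that limit returned the reported values. Shifting or centring an array cannot change the subunit gap, and only 2 members had several probe sets to choose from. The number of values that stayed is therefore no measure of stability. The count at 2-fold and the settings for pairs of mutants were added after the data were seen. Renewed quantile scaling gave medians of 0.21 in spen and 0.25 in E(spl), beside 0.10 and 0.07 for all genes, and 0.084 for EGFR against spen. It gave 12 higher and 3 lower members by 0.5 in spen, beside 20.8% and 20.4% of all genes, and 3 members past 2-fold in EGFR. Shifting the arrays to a common median gave 10 higher and 3 lower in spen, beside 18.3% and 21.5% of all genes. It gave 0 lower in E(spl), beside 22.5%. With the mean of the other 3 mutants as reference, the medians were −0.12 (spen), 0.013 (E(spl)), −0.070 (Su(H)) and 0.11 (EGFR), 4 members were higher for E(spl), 4 for Su(H) and 6 for EGFR, 11 were lower for spen, and the large minus small subunit gap was −0.13 in spen and −0.12 in E(spl). At a level of at least 8, 9 members were higher in E(spl), 4 higher in Su(H) and 3 lower in spen, with fewer genes tested, and the subunit gap in spen was 0.15. Using only plain _at probe sets gave subunit gaps of −0.13 (spen), −0.0066 (E(spl)) and −0.026 (Su(H)), and 1 lower member in Su(H), since mRpS5 and mRpS18B have other probe set types. A threshold of 1 left 0 members in each direction and stock. The counts of this paragraph from the other-stock reference, the level of at least 8 and the plain _at probe sets have no share of all genes beside them. The same holds for the 3 members past 2-fold. None of these counts is read against a background. Leaving out replicates was not possible with 1 array per group. No paired analysis was possible because each group holds 1 array. For the settings that are not built from fewer genes or arrays, the cause was not tested.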

Other observations

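The smallest differences between arrays were found for E(spl) and Su(H), the Notch pathway stocks. The median size of the difference over the 69 genes was 0.18 log2 units for Su(H) against E(spl), and it ran from 0.20 to 0.33 for the other 9 pairs of arrays. Over the 8419 genes that passed the level filter on some array, Su(H) against E(spl) was also the closest pair, at 0.22, with the others between 0.31 and 0.40. The level of a member on 1 array went with its level on another, with Pearson's r between 0.95 and 0.97 over the 69 genes for all 10 pairs. Genes are not independent replicates and share probes across arrays, so this r describes the arrays only.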
